A study of Gallus gallus with 12 samples.

Results

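The factors described here are 10 genes known for pluripotency or for the specification of primordial germ cells (PGCs), the embryonic precursors of eggs and sperm: *NANOG*, *POU5F3*, *SOX2*, *SOX3*, *LIN28A*, *LIN28B*, *PRDM14*, *PRDM1*, *TFAP2C* and *KLF4*. They were chosen by name, and 9 of the 10 were found among 24356 chicken genes, with *POU5F3* spelled Pou5f3. *KLF4* was not among the gene names and was not analysed here. The factors and the genes of the lists below were looked up by name only, and 10821 of the 24356 genes had none. Female (ZW) and male (ZZ) PGCs of white Leghorn embryos were sorted by FACS for SSEA-1, a surface antigen of early chicken PGCs. Circulating PGCs were taken from blood at embryonic day 2.5 (E2.5), and gonadal PGCs from gonads at E4.5 and E6.5, so that stage and tissue cannot be told apart. Each of the 6 groups of stage and sex had 2 libraries, each from a pool of 6 to 14 embryos. The study asked which genes differ between female and male PGCs at these stages. The labels name no treatment and no altered allele in any group.

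Pluripotent cells keep the capacity to form every cell type of the embryo, and transcription factors of the NANOG, POU5 and SOXB1 families hold them in that state. Early germ cells of vertebrates go on expressing much of this network. In the mouse, PRDM1, PRDM14 and TFAP2C set up the germ cell fate, and the RNA-binding proteins LIN28A and LIN28B block the maturation of let-7 microRNAs.

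Values are in TPM (transcripts scaled to a common library total), which correct read numbers for gene length and sum to 1000000 in each library. The libraries held 7185031 to 13749166 reads on genes, and the first E4.5 pool of each sex held the fewest. Germ cell markers were high in every library: *DAZL*, an RNA-binding protein of germ cells, was at 1621 to 2536 TPM and *DDX4* (the chicken vasa homologue) at 135 to 680 TPM, and 9 of 10 germ cell markers were in the table. Summed markers of gonadal somatic cells came to 3.50 to 14.9 TPM and those of endothelium and leukocytes to 3.58 to 34.4 TPM. Summed markers of red blood cells came to 2571 to 165401 TPM at E2.5 and to 96.2 to 631 TPM later, with the highest value in the first E2.5 female pool. Summed markers of mesonephros and liver came to 405 and 3052 TPM in the E6.5 females, against 16.9 and 10.6 TPM in the E6.5 males. In these females nearly all of the sum was *APOA1*, an apolipoprotein, at 398 and 3022 TPM. In the E6.5 males *APOA1* was at 12.6 and 7.90 TPM, the larger part of each sum. Of the 5 markers of this list tested between the sexes at E6.5, 4 had positive differences for female over male and 1 a negative one. Their median log2 difference was 1.97, against -0.08 over all genes. The negative one was *ALB* (albumin), at 0.22 and 0.30 TPM in the females and 1.26 and 2.63 TPM in the males. Summed markers of neural cells came to 163 to 292 TPM at E2.5, 399 to 841 TPM at E4.5 and 364 to 707 TPM at E6.5, mostly *ELAVL4* and *FABP7*, while *SOX1* and *NEUROD1* were at no more than 0.20 and 0.15 TPM. The sum does not stand for the list: of 4 neural markers tested for E6.5 over E2.5, 2 were higher and 2 lower. Their median log2 difference was -0.13, against -0.11 over all genes. The part of these markers in the results below was not tested.

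On the scale of TPM, which allows levels of different genes to be compared, *NANOG*, *POU5F3* and *SOX3* were the most abundant of the 9 factors. *NANOG* averaged 397 ± 251 TPM over the 12 libraries (SD, n = 12) and ranked 520 in the table. *POU5F3* averaged 212 ± 109 TPM and *SOX3* 174 ± 133 TPM. *TFAP2C*, *LIN28B* and *LIN28A* formed a middle group at 26.4 ± 33.4, 26.3 ± 29.7 and 10.4 ± 11.5 TPM, and *PRDM1* and *PRDM14* were low at 4.04 ± 2.37 and 3.53 ± 3.26 TPM. *SOX2* was near the limit of detection at 0.791 ± 0.948 TPM. Among neighbours in this order, only *SOX3* and *TFAP2C* differed by more than the larger of their SDs, so the lower groups are not set apart by this measure. The genes are spread over chromosomes 1, 2, 3, 4, 9, 17, 20 and 23 of GRCg6a, and none lies on Z or W.

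**Figure D1:**
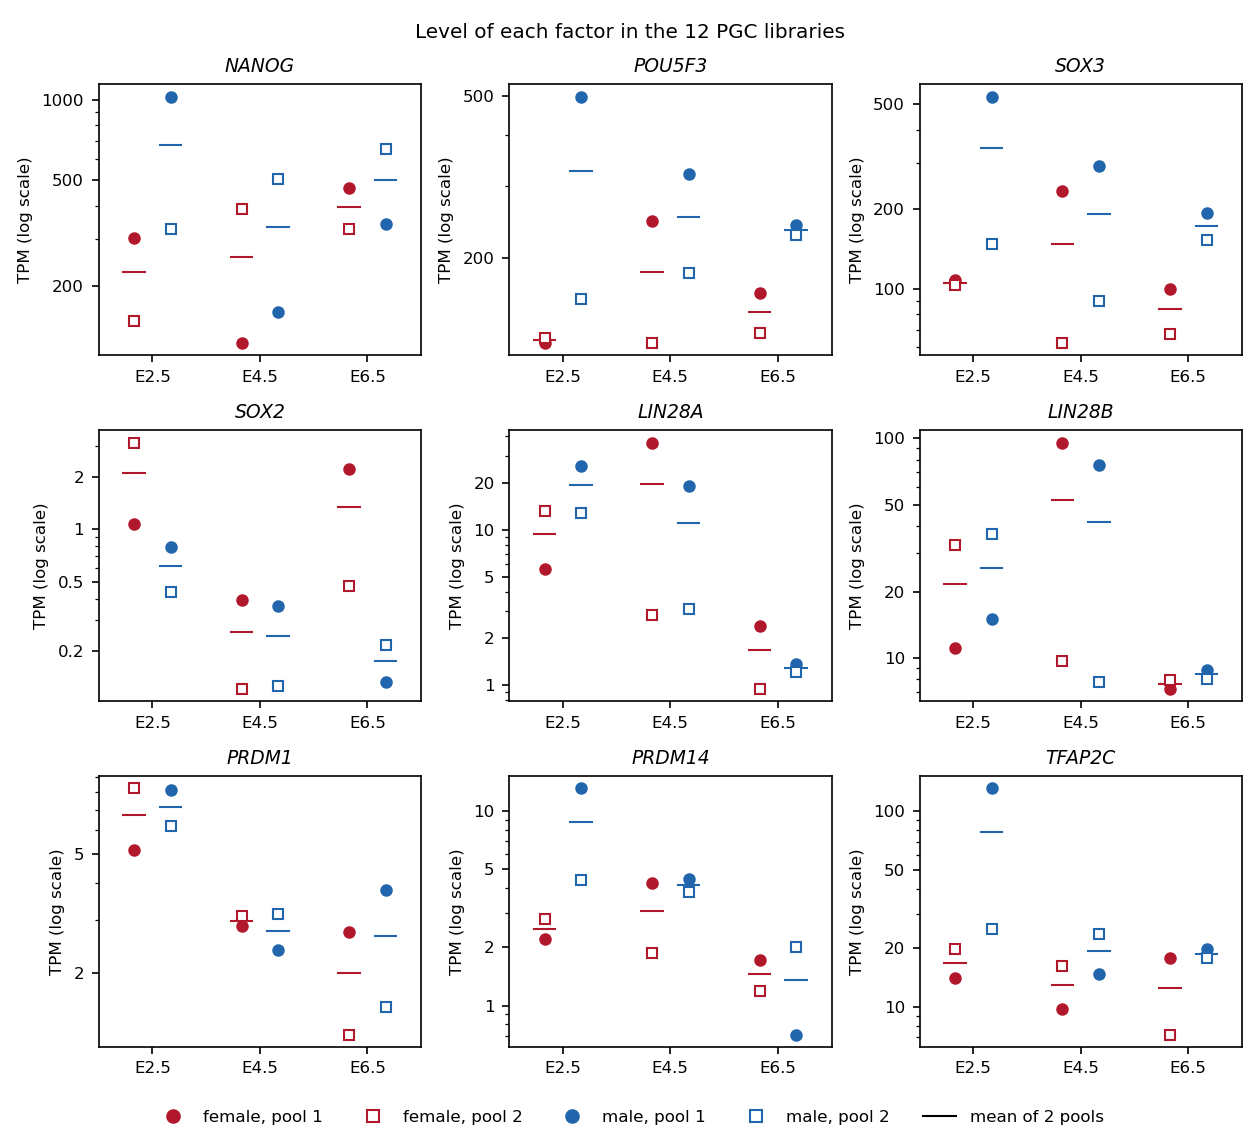
Level of each factor in TPM on a log axis, by stage, with females left of males; each point is 1 library and each bar the mean of 2. *NANOG* lies between 122 and 1024 TPM in all 12 libraries, whereas *LIN28A* lies between 0.95 and 2.40 TPM at E6.5 and reaches 36.5 TPM at E4.5.

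*NANOG* (ENSGALG00000027772), a homeodomain factor, lies on the minus strand of chromosome 1 at chr1:75593243-75596024 with 927 bases of exon sequence in 5 exon blocks. At E2.5 it had 303 and 148 TPM in females and 1024 and 328 TPM in males. At E4.5 it had 122 and 390 TPM in females and 160 and 505 TPM in males, and at E6.5 465 and 328 TPM in females and 341 and 654 TPM in males. The libraries of the 3 stages overlapped. Its span overlaps that of an unnamed protein-coding gene on the other strand, with no exon base in common and at most 17 reads in a library.

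*POU5F3* (ENSGALG00000031482), the chicken POU-domain relative of mammalian OCT4, lies on the minus strand at chr17:823420-837030 with 3 annotated transcripts. At E2.5 it had 123 and 127 TPM in females and 497 and 158 TPM in males. At E4.5 the values were 246 and 124 TPM in females and 321 and 184 TPM in males, and at E6.5 163 and 130 TPM in females and 241 and 228 TPM in males. Females were under males at E2.5 and E6.5 without overlap, and the sexes overlapped at E4.5.

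The pair of SOXB1 factors differed in level. *SOX3* (ENSGALG00000054923, plus strand, chr4:10505302-10506252) had 108 and 103 TPM in females and 535 and 148 TPM in males at E2.5. It had 234 and 62.3 TPM in females and 293 and 90.1 TPM in males at E4.5, and 100 and 67.1 TPM in females and 193 and 153 TPM in males at E6.5. *SOX2* (ENSGALG00000043460, minus strand, chr9:17025522-17026706), which acts with OCT4 in mammalian pluripotent cells, was covered by 1 to 20 reads per library and reached 1 TPM in 3 of 12 libraries. In 6 of 12 libraries it had 3 reads or fewer, the number taken as the limit of detection. The ratio of *SOX3* to *SOX2* in TPM ran from 32.9 to 1460 across libraries. The reads of *SOX2* were too few for its differences between groups to be measured.

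*LIN28A* (ENSGALG00000036022) lies on the minus strand at chr23:285905-297198, and *LIN28B* (ENSGALG00000026761) on the minus strand at chr3:68903432-68979504. At E2.5 *LIN28A* had 5.62 and 13.2 TPM in females and 25.8 and 12.9 TPM in males. At E4.5 it had 36.5 and 2.82 TPM in females and 19.1 and 3.11 TPM in males, and at E6.5 2.40 and 0.95 TPM in females and 1.37 and 1.22 TPM in males. All 4 E6.5 libraries, at 10 to 27 reads, were under every earlier library, where the fewest reads were 29. The share of all genes in this order was not counted. *LIN28B* had 11.1 and 32.6 TPM in females and 15.0 and 36.7 TPM in males at E2.5. It had 95.6 and 9.68 TPM in females and 75.7 and 7.77 TPM in males at E4.5, and 7.26 and 7.96 TPM in females and 8.86 and 8.02 TPM in males at E6.5. All 4 E6.5 libraries were under the 4 E2.5 libraries and overlapped the second E4.5 pools. The span of *LIN28A* overlaps that of a pseudogene on the other strand, with no exon base in common and at most 9 reads in a library.

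*PRDM1* (ENSGALG00000015388, minus strand, chr3:68350477-68445504), a transcriptional repressor that starts PGC specification in the mouse, had 5.15 and 8.23 TPM in females and 8.13 and 6.19 TPM in males at E2.5. It had 2.87 and 3.09 TPM in females and 2.38 and 3.14 TPM in males at E4.5, and 2.74 and 1.25 TPM in females and 3.79 and 1.54 TPM in males at E6.5. The 8 gonadal libraries were all under the 4 blood libraries, and the share of all genes in this order was not counted. *PRDM14* (ENSGALG00000033439, minus strand, chr2:116484466-116494659), which in the mouse supports both pluripotency and germ cell fate, had 2.19 and 2.77 TPM in females and 13.02 and 4.41 TPM in males at E2.5. It had 4.24 and 1.87 TPM in females and 4.47 and 3.84 TPM in males at E4.5, and 1.70 and 1.18 TPM in females and 0.71 and 2.00 TPM in males at E6.5. The E6.5 libraries were all under the E2.5 libraries. *PRDM1* and *PRDM14* were covered by 29 to 170 and 7 to 129 reads.

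*TFAP2C* (ENSGALG00000007690, minus strand, chr20:11939844-11947261), an AP-2 factor that acts with PRDM1 in mouse PGCs, had 14.0 and 19.6 TPM in females and 131 and 24.9 TPM in males at E2.5. It had 9.73 and 16.2 TPM in females and 14.7 and 23.7 TPM in males at E4.5, and 17.7 and 7.21 TPM in females and 19.7 and 17.7 TPM in males at E6.5. The first E2.5 male pool stood far above the others. That library held the highest value of 5 of the 9 factors, *NANOG*, *POU5F3*, *SOX3*, *PRDM14* and *TFAP2C*. Its median-of-ratios factor, taken over genes with reads in every library, was 1.34, the largest of all libraries. Its TPM thus stood higher over genes in general, and the share of all genes highest there was not counted.

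To compare stages, log2(TPM + 1) was fitted with limma over all 12 libraries, the sexes were averaged, and a gene was called at an adjusted p (Benjamini-Hochberg over all 14154 genes tested) under 0.05. All 9 factors passed the filter of 1 TPM in 2 libraries. From E6.5 over E2.5, 8 of the 9 differences were negative with a median of -1.04, against -0.11 over all genes. The 8 include *SOX2*, whose reads were too few to measure a difference. An unadjusted limma p under 0.05 was found for 4 of the 9 factors and for 2313 of the 14154 genes. None of the 9 factors was called, whereas 280 genes were (1.98% of those tested). *LIN28A* had the largest difference, -2.49 ± 0.70 (SE, limma adjusted p = 0.0913), followed by *LIN28B* at -1.30 ± 0.74 (adjusted p = 0.406), *PRDM1* at -1.30 ± 0.39 (adjusted p = 0.118), *PRDM14* at -1.23 ± 0.43 (adjusted p = 0.172) and *TFAP2C* at -1.04 ± 0.48 (adjusted p = 0.305). The first 4 of these were the factors whose E6.5 libraries were all under the E2.5 libraries, which held for 8.37% of all genes. In pools of sorted cells, fewer cells that express a gene and less of its RNA per cell cannot be told apart.

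The call of *LIN28A* depended on the setting. The E4.5 libraries enter only through the shared estimate of spread, and leaving some of them out raised the calls over genes in general. Without both first E4.5 pools the adjusted p was 0.00696, and without any single E4.5 library it was 0.0220 to 0.0451 in limma, at the same difference. Over all alternatives it ran from 0.00696 to 0.650, the highest in males alone. Without the first E2.5 female pool, which had the highest red blood cell markers, the difference was -2.77, and under median-of-ratios scaling it was -2.37.

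*NANOG*, *POU5F3* and *SOX3* differed less between the first and the last stage. *NANOG* was at 0.29 (95% interval -0.76 to 1.35), *POU5F3* at -0.019 (-0.77 to 0.74) and *SOX3* at -0.53 (-1.60 to 0.53) for E6.5 over E2.5 in the same log2 unit. Intervals of this width do not show equal levels. Without the first E2.5 male pool, where 5 factors were highest, *SOX3* was at -0.074 and *TFAP2C* at -0.45, and without the second E2.5 male pool *SOX3* was at -0.995 and *TFAP2C* at -1.63. *NANOG* was at -0.29 in males alone, and the sign of *POU5F3* turned to 0.14 under median-of-ratios scaling.

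Over all 12 libraries, *PRDM1* had the largest difference between E4.5 and E2.5 and *LIN28A* the largest between E6.5 and E4.5, and neither passed the test. For E4.5 over E2.5, 26 genes were called (0.184%), none of them a factor, and *PRDM1* was at -1.02 ± 0.39 (limma adjusted p = 0.373), close to *TFAP2C* at -0.97. Without both first E4.5 pools *PRDM1* was at -0.92, and *LIN28A* (-1.79), *LIN28B* (-1.20) and *SOX3* (-1.19) were farther from 0. Its E4.5 libraries were all under the E2.5 libraries, against 3.86% of all genes. For E6.5 over E4.5 no gene was called (0%), although 1638 had an unadjusted p under 0.05, and limma-voom on the recovered reads called 0 as well. The largest differences were *LIN28A* at -2.10 ± 0.70 (adjusted p = 0.350), *LIN28B* at -1.68 ± 0.74 (adjusted p = 0.420) and *NANOG* at 0.78 ± 0.49 (adjusted p = 0.502). *LIN28A* alone had its E6.5 libraries all under the E4.5 libraries, against 1.77% of all genes. Its nearest libraries were the first E6.5 female pool with 27 reads and the second E4.5 female pool with 29, too near to set apart by reads. *LIN28A* was at -2.92 without the second E4.5 female pool and at -1.28 without the first, each leaving 1 E4.5 female library.

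At E4.5 the first and the second pools stood apart. The 8 factors other than *SOX2*, which had 1 or 2 reads in each E4.5 library, had both first pools on the same side of both second pools: 5 were higher in the first (*LIN28A*, *LIN28B*, *SOX3*, *POU5F3*, *PRDM14*) and 3 in the second (*NANOG*, *TFAP2C*, *PRDM1*). Over all genes tested at E4.5, 48.8% were higher in the first pools and 22.3% in the second without overlap, so such a separation was common. *LIN28A* was 12.9 times higher in the first than in the second female pool and 6.14 times in males, *LIN28B* 9.88 and 9.74 times, and *SOX3* 3.75 and 3.26 times. *NANOG* went the other way at 0.314 and 0.317 times. The ratio of *NANOG* to *POU5F3* was 0.498 in the female and 0.499 in the male first pool, against 3.16 in the female and 2.75 in the male second pool. It was 1.16 to 2.88 in the other 8 libraries. Over genes averaging at least 1 TPM, log2 levels correlated at 0.913 between the first pools, 0.974 between the second pools, and 0.873 in females and 0.886 in males between first and second.

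**Figure D2:**
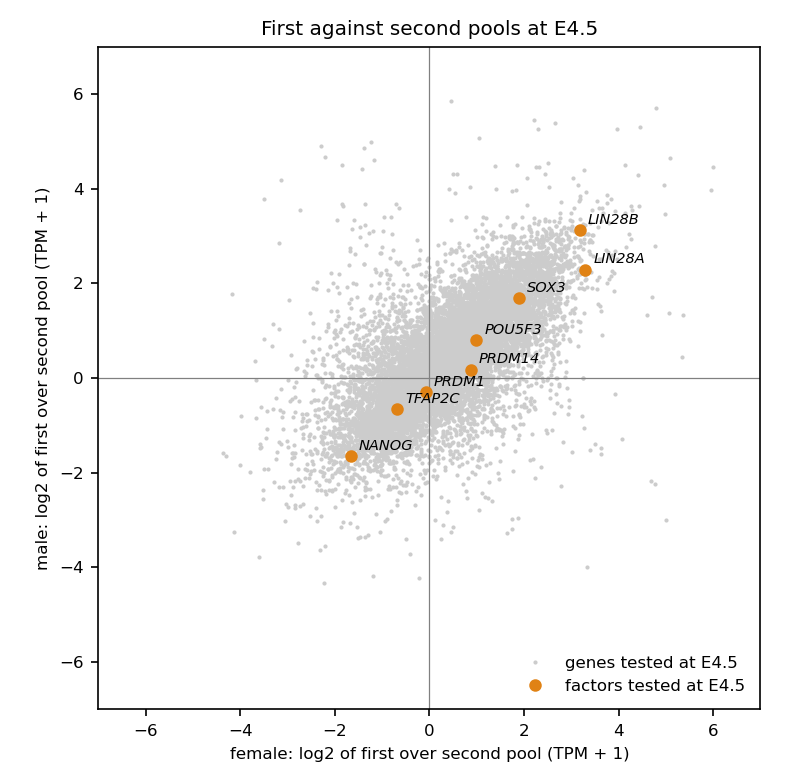
Log2 ratio of first over second pool at E4.5 in females (x axis) and males (y axis), TPM + 1; grey points are the 12229 genes tested at E4.5 and orange points the 8 factors among them. *LIN28A* and *LIN28B* lie at the upper right and *NANOG* at the lower left.

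Such an order was not shared by the other stages. At E2.5, 8 of the 9 factors overlapped between first and second pools, and *LIN28B* was higher in both second pools (22.8% of all genes). At E6.5, 7 overlapped, and *LIN28A* and *PRDM1* were higher in both first pools (17% of all genes). Without both first E4.5 pools, the difference of E4.5 over E2.5 was -1.79 for *LIN28A*, -1.20 for *LIN28B*, -1.19 for *SOX3* and 0.34 for *NANOG*. In that setting, E6.5 over E4.5 was -0.70 for *LIN28A*, -0.10 for *LIN28B*, 0.66 for *SOX3* and -0.047 for *NANOG*. Which pools are typical of E4.5 was not tested, and the stage differences that involve E4.5 depend on them.

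Over the 12 libraries, the levels of some factors followed one another, as a description of libraries that share stage, pool and depth. Pearson's r of log2(TPM + 1) was 0.93 between *POU5F3* and *SOX3*, 0.85 between *LIN28A* and *LIN28B*, and -0.73 between *NANOG* and *LIN28B* (n = 12). Between *NANOG* and *POU5F3* it was 0.27. Among 7336 named genes averaging at least 5 TPM, the gene most like *NANOG* was *SLC29A1* (r = 0.96), followed by *ATG13* and *PRKAA1* (0.96 and 0.95). For *POU5F3* these were *THAP4*, *WDR18* and *UAP1* (0.97, 0.96 and 0.96), for *SOX3* *POLR1B*, *MYB* and *NCSTN* (0.97, 0.96 and 0.96), and for *TFAP2C* *ST6GALNAC5*, *ESRP1* and *GNAI1* (0.92, 0.92 and 0.91). For *LIN28A* they were *ATP2B1*, *KIF26B* and *FAM60A* (0.97, 0.96 and 0.96), and for *LIN28B* *MGEA5*, *U2AF1* and *EIF4EBP3* (0.97 each).

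To compare the sexes, the 4 libraries of each stage were fitted with limma in the same way, as female over male. At E2.5, 8 of the 9 differences were negative, with a median of -1.16. Over all 12381 genes the median was -0.34, and it was -0.0036 under median-of-ratios scaling. None of the factors was called, against 30 genes (0.242%), of which 23 were higher in females and 7 lower, or 26 and 2 with the other scaling. The largest differences were *TFAP2C* at -1.73 ± 0.59 (adjusted p = 0.313), *NANOG* at -1.45 ± 0.45 (adjusted p = 0.287), *SOX3* at -1.41 ± 0.44 (adjusted p = 0.292), *PRDM14* at -1.33 ± 0.64 (adjusted p = 0.437) and *POU5F3* at -1.16 ± 0.42 (adjusted p = 0.325). In these 5 factors both female libraries were under both male libraries, which held for 36.5% of all genes. *SOX2*, the only factor with a positive difference, had 4 to 20 reads in these libraries, too few to measure it.

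The size of these E2.5 differences rested on the first male pool. Without it they were -0.56 for *TFAP2C*, -0.63 for *NANOG*, -0.49 for *SOX3*, -0.64 for *PRDM14* and -0.33 for *POU5F3*. Without the second male pool they were -2.91 for *TFAP2C*, -2.27 for *NANOG*, -2.33 for *SOX3*, -2.01 for *PRDM14* and -1.98 for *POU5F3*. That setting left the first male pool as the only male library. The median over all genes was -0.23 without the first male pool and -0.45 without the second, against -0.34 with both. Germ cell markers moved in the same direction at E2.5: all 9 tested had negative differences with a median of -0.83, and none was called. Among them *DDX4* (-1.40) lies on Z, unlike the factors. It had 680 TPM in the first male pool and 317 TPM in the second. The part of the germ cell markers in the differences of the factors was not tested.

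At E4.5 the libraries of the sexes overlapped for each of the 8 factors tested, whereas 8.01% of all genes were higher and 9.17% lower in both females. No factor was called, against 2 genes (0.0164%), and none of the 8 factors tested had an unadjusted p under 0.05. Their differences ran from -0.54 to 0.40, with intervals as wide as -2.84 to 3.46 for *LIN28B*. The female and male values of *LIN28B* were nearer to each other within the first pools (95.6 and 75.7 TPM) and within the second pools (9.68 and 7.77 TPM) than across them. The labels do not say that pools of the same number were prepared together. With pools matched by number, both females were under their males for 5 of the 8 factors (*NANOG*, *POU5F3*, *SOX3*, *PRDM14* and *TFAP2C*). The same held for 25.7% of all genes. In *NANOG* this was 122 against 160 TPM in the first pools and 390 against 505 TPM in the second.

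At E6.5, 263 genes were called between the sexes (2.19%), 166 of them higher in females and 97 lower, or 62 and 12 under median-of-ratios scaling. None of the 8 factors tested was among them. *SOX3* was at -1.06 ± 0.27 (limma adjusted p = 0.106) and *POU5F3* at -0.68 ± 0.22 (adjusted p = 0.199), with both female libraries under both male libraries. This order also held for *LIN28B* at -0.13 ± 0.33 and for *TFAP2C*, whose nearest libraries were at 17.68 and 17.69 TPM, and for 28.2% of all genes. *SOX3* was at -1.34 without the first E6.5 female pool and at -0.77 without the second, each leaving 1 E6.5 female library. *SOX2*, which was below the filter at E4.5 and E6.5, had 20 and 4 reads in the E6.5 females and 1 and 2 in the males. Whether the sexes differed by unlike amounts at unlike stages was tested with 3 interaction terms over all 12 libraries, which called no factor and no gene (0%). An unadjusted p under 0.05 was found for 393, 503 and 731 genes, and limma-voom called 0 genes as well.

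**Figure D3:**
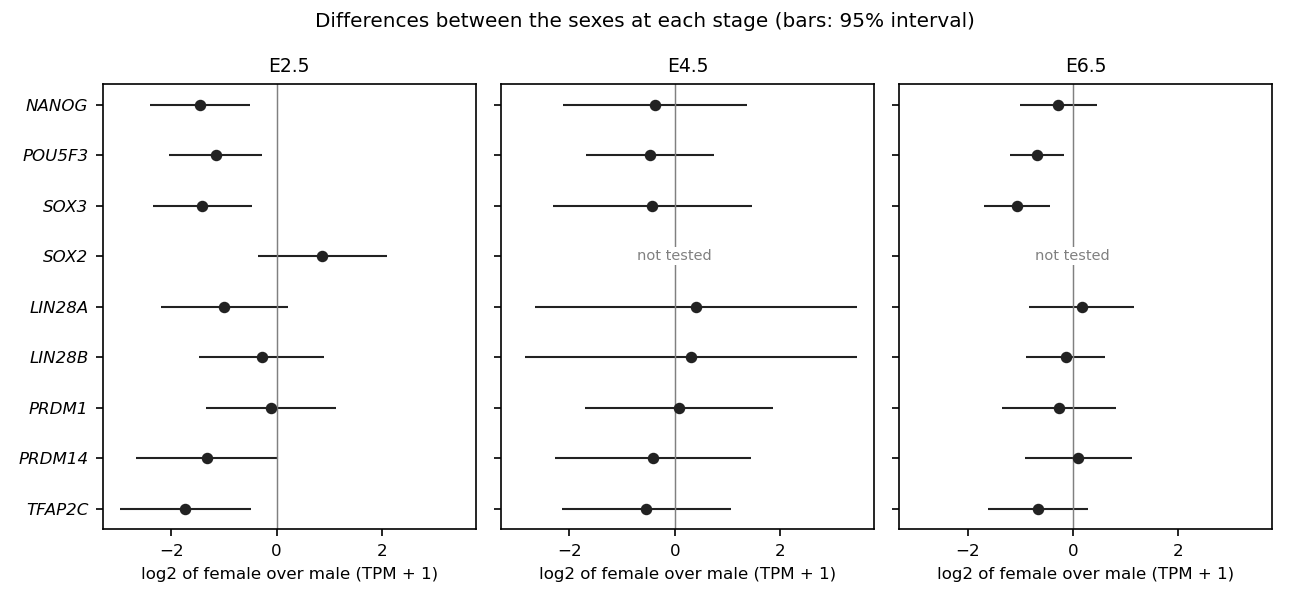
Female over male difference in log2(TPM + 1) at each stage, for each factor; bars are 95% intervals not adjusted for the number of genes. At E2.5 the values run from -1.73 (*TFAP2C*) to 0.87 (*SOX2*, at 4 to 20 reads a library), with the next highest at -0.10 (*PRDM1*). At E6.5 they run from -1.06 (*SOX3*) to 0.17 (*LIN28A*).

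Other genes of the pluripotency network were described by a list of 24 genes, of which 17 were in the table and 14 tested. None was called in any stage or sex comparison. For E6.5 over E2.5, 13 of 14 differences were negative and the median was -0.82, against -0.11 over all genes. In 5 of 14, the E6.5 libraries were all under the E2.5 libraries (8.37% of all genes): *SALL4*, *TRIM71*, *MYC*, *MYCN* and *OTX2*, named after their values were seen. *MYC* and *MYCN* encode growth-promoting transcription factors, and *OTX2* a homeodomain factor of the early epiblast and the forebrain. *SALL4*, a zinc finger factor of pluripotent and germ cells, had 19.1 and 13.6 TPM in females and 42.7 and 20.1 TPM in males at E6.5. Its E2.5 values were 47.6 and 99.7 TPM in females and 65.9 and 89.2 TPM in males, and the difference was -1.69 (adjusted p = 0.102). *TRIM71*, a ubiquitin ligase and let-7 target in other animals, was at 15.5 to 29.0 TPM at E6.5, against 41.3 to 59.8 TPM at E2.5 (difference -1.28, adjusted p = 0.176). At E4.5, 12 of 14 were higher in both first pools, against 48.8% of all genes.

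The list of the LIN28 and let-7 axis held 15 names. Among them were second names of *TUT4* and *ZCCHC6*, so the names not found were no missing genes. In all, 13 genes were in the table and tested, and none was called in any comparison. Their median difference for E6.5 over E2.5 was -0.62, against -0.11 over all genes, and in 4 of 13 (*HMGA2*, *TUT4*, *DROSHA* and *DGCR8*, named after their values were seen) the E6.5 libraries were all under the E2.5 libraries, as in 8.37% of all genes. *HMGA2*, a chromatin protein, is a let-7 target in mammals, and *TUT4* adds uridines to let-7 precursors bound by LIN28A. *DROSHA* and *DGCR8* form the complex that cuts primary microRNAs, and their differences were -1.03 and -1.13 (adjusted p = 0.203 and 0.262). All 13 were higher in both first E4.5 pools, against 48.8% of all genes. Mature let-7 is not measured by these libraries.

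Among 31 relatives of the factors by family, 27 were in the table and 17 tested for E6.5 over E2.5, and 1 was called, against 1.98% of all genes. *TFAP2A*, an AP-2 factor related to *TFAP2C*, had 0.288 and 0.385 TPM in females and 2.57 and 1.55 TPM in males at E6.5, against 10.6 and 12.6 TPM in females and 19.6 and 10.9 TPM in males at E2.5. It fell by 2.80 on the log2 scale (limma adjusted p = 0.00632), with no overlap between the stages. The call was lost in each sex alone, with an adjusted p of 0.11 in females and 0.601 in males, and over the alternatives with both sexes the adjusted p was 0.00256 to 0.0486. The median difference of the 17 relatives was -0.35, against -0.11 over all genes.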

How the data were processed

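RNA-seq was made by the authors from cDNA of sorted PGCs (SMART-seq v4, Nextera XT). Reads were trimmed with Trimmomatic 0.39 and Trim Galore 0.6.6, mapped to GRCg6a with STAR 2.7.3a and counted with featureCounts 2.0.1. The authors deposited TPM for 24356 genes. The step to TPM is not given in the sources used here. In 100% of low values, TPM times gene length came in whole steps of 1 read (tolerance 0.02), and this gave back the reads used for limma-voom. Library preparation does not mark strand.

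Samples were grouped by the stage and sex in their labels. Differences were tested with limma 3.58.1 in R 4.3.3 (lmFit, eBayes with trend) on log2(TPM + 1), which understates changes of low genes, with Benjamini-Hochberg adjustment. Genes entered a fit if at least 2 of its libraries had 1 TPM or more. Stage contrasts and interactions used all 12 libraries and 6 group means, and sex contrasts the 4 libraries of the stage. P-values rest on the spread between pools within groups, shared over the groups of a fit and drawn towards that of genes of like level. The main fits treated all pools as independent, although same-numbered E4.5 pools deviated together (correlation 0.670). With 2 libraries a group, the smallest two-sided exact permutation p is 0.333. Alternatives were a pseudocount of 0.1, median-of-ratios scaling, no filter, a mean of 5 TPM as the filter, limma-voom, the pool number as a block, 1 sex alone, a log2 fold of 3, sexes compared in a fit of all 12 libraries, and each library or both first E4.5 pools left out. The tests were also run on simulated data, where they missed small differences and called some unchanged genes.

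The factors and gene lists were chosen with earlier results of these data known. List genes were named with values if called at 10 TPM or more in a group mean, and other exceptions are stated. Figures were drawn with matplotlib 3.10.9.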

Additional observations from a re-analysis of the deposited data

How the results depend on the processing

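In the 119 counts recomputed under other settings than single left-out libraries, 89 stayed within 1.5 times the value reported. Counts of 0 that stayed at 0 were scored as staying, among them most counts of factors called. The 89 therefore do not measure how stable the counts above 0 were. For E4.5 over E2.5, the 26 genes called became 2 with no filter, 7 with median-of-ratios scaling, 0 with limma-voom, 0 in females alone, 6 in males alone and 3 without both first E4.5 pools. For E6.5 over E2.5, the 280 became 172 with no filter, 0 in females alone, 5 in males alone and 1208 without both first E4.5 pools, where 1 factor (*LIN28A*) was called. Between the sexes at E2.5, the 30 became 10 with no filter, 69 with the filter at a mean of 5 TPM and 17 with limma-voom. At E4.5, the 2 became 1 with median-of-ratios scaling, 0 with limma-voom and 21 with all 12 libraries in one fit. At E6.5, the 263 became 10 with no filter, 74 with median-of-ratios scaling, 12 with limma-voom, 148 with all 12 libraries and 141 at a log2 fold of 3 or more. A comparison in 1 sex alone rests on 2 libraries a stage, and the cause of the other shifts was not tested.

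The labels do not say that pools of the same number were prepared together. Deviations of same-numbered female and male pools had a correlation of 0.236 in the E2.5 groups, 0.670 in the E4.5 groups and -0.129 in the E6.5 groups. With the pool number as a replicate block, 6 genes were called for E6.5 over E4.5 and 51 genes between the sexes at E4.5. For the change of the sex difference at E6.5 against E4.5, 16 genes were called. For E6.5 over E2.5 the block called 184 genes higher and 177 lower, of 14154 tested. They included 1 factor (*LIN28A*, -2.49, limma adjusted p = 0.0472). Between the sexes at E2.5 the block called 563 of 12381 genes, with 4 factors: *NANOG* (-1.45), *POU5F3* (-1.16), *SOX3* (-1.41) and *TFAP2C* (-1.73). In a fit of 4 libraries with 2 group means, a block leaves little to estimate the spread of a gene from. A block with the numbers crossed at E6.5, chosen after seeing the data, called 563 of 12029 genes, with 1 factor (*SOX3*, -1.06).

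Directions of single factors turned as follows. In females alone, E4.5 over E2.5 was 0.047 for *NANOG*, 0.20 for *SOX3*, 0.30 for *LIN28A* and 0.16 for *PRDM14*, and E6.5 over E2.5 was 0.22 for *POU5F3*. In males alone, E4.5 over E2.5 was -0.21 for *POU5F3*, E6.5 over E4.5 was -0.078 for *SOX2* and 0.080 for *SOX3*, and E6.5 over E2.5 was -0.29 for *NANOG*. Without both first E4.5 pools, E4.5 over E2.5 was 0.34 for *NANOG*, -0.31 for *POU5F3* and -1.20 for *LIN28B*, and E6.5 over E4.5 was -0.047 for *NANOG*, 0.29 for *POU5F3* and 0.66 for *SOX3*. With median-of-ratios scaling, *POU5F3* was at 0.14 for E6.5 over E2.5, and the sex difference at E2.5 was 0.076 for *LIN28B* and 0.23 for *PRDM1*, which was at 0.072 with limma-voom. None of these values passed the test.

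With each library left out in turn, the genes called ran from 2 to 116 for E4.5 over E2.5, 0 to 398 for E6.5 over E4.5 and 27 to 538 for E6.5 over E2.5. Between the sexes, 5 to 630 genes were called at E2.5, from 3 to 7 genes at E4.5, and from 7 to 564 genes at E6.5. Factors were called only where the library left out also raised the number of genes called in general. These were E4.5 libraries for the stages, and the second E2.5 male pool and the first E6.5 female pool for the sexes. Each of these fits left 1 library in a group. For E4.5 over E2.5 the differences ran from -0.28 to 0.55 for *POU5F3*, -0.77 to 0.18 for *SOX3*, -1.22 to 0.43 for *LIN28A*, -0.42 to 1.17 for *LIN28B* and -0.64 to 0.043 for *PRDM14*. For E6.5 over E4.5 they ran from -0.40 to 0.094 for *POU5F3*, -0.71 to 0.24 for *SOX3*, -2.92 to -1.28 for *LIN28A* and -0.36 to 0.23 for *TFAP2C*. For E6.5 over E2.5 they ran from -0.12 to 0.70 for *NANOG*, -0.43 to 0.39 for *POU5F3*, -0.995 to -0.074 for *SOX3*, -1.63 to -0.45 for *TFAP2C* and -2.77 to -2.22 for *LIN28A*. Between the sexes at E2.5 they ran from -2.27 to -0.63 for *NANOG*, -1.98 to -0.33 for *POU5F3*, -2.33 to -0.49 for *SOX3*, -1.02 to 0.45 for *LIN28B*, -0.40 to 0.19 for *PRDM1* and -2.91 to -0.56 for *TFAP2C*. At E4.5 they ran from -1.21 to 0.45 for *NANOG*, -0.97 to 0.019 for *POU5F3*, -1.37 to 0.52 for *SOX3*, -1.25 to 2.04 for *LIN28A*, -1.28 to 1.90 for *LIN28B*, -0.85 to 0.025 for *PRDM14* and -0.058 to 0.23 for *PRDM1*. At E6.5 they ran from -0.74 to 0.19 for *NANOG*, -1.34 to -0.77 for *SOX3*, -0.23 to 0.57 for *LIN28A*, -0.30 to 0.51 for *PRDM14* and -0.72 to 0.19 for *PRDM1*. Where 1 library was left in a group, it was assumed to vary like the others. *TFAP2A* (E6.5 over E2.5) kept its call with each library left out, and was at -3.23 in females alone and -2.38 in males alone, where it was not called.

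Depth limits *SOX2*, with 72 reads over all 12 libraries, and *PRDM14*, with 413. It also limits *LIN28A* at E6.5, with 10 to 27 reads a library.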
